A study of Mus musculus with 15 samples.

Results

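The 10 genes described here, 1700009J07Rik, Ttc24, Tppp2, 4930544D05Rik, Yjefn3, Gm136, 1700003O11Rik, Lrrc57, 1700027A15Rik and Nudt16l2, were taken by symbol from the 32285 genes of the count tables, and all 10 were found. The genes were selected on their measured level in spermatid-like cells, which was far lower in JQ1-treated than in untreated mice, so their levels in JQ1-treated testes are given as a description, and the calls in comparisons with T are not evidence about them. They had been labelled late spermatid genes that are absent under JQ1. The data bear out that label only in part, because 2 of the 10 transcripts are highest well before the last haploid stages and others were still detected, at a low level, in spermatid-like cells of treated mice.

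Testes of DBA/2J mice were dissociated and profiled by droplet single-cell RNA-seq, 1 testis per mouse and 1 library per mouse, with 3 mice in each of 5 groups. JQ1 is a small molecule that occupies the acetyl-lysine pocket of BET bromodomain proteins, among them the testis-restricted BRDT, and nothing in the design limits it to the testis or to BRDT. T mice received 50 mg/kg JQ1 into the peritoneum every day for 3 wk and were taken straight after, at 10 wk of age, and R mice received the same course and were taken 6 wk after it ended, at 16 wk of age. VC-T and VC-R mice received vehicle on these schedules and were 10 and 16 wk old, and UC mice were untreated and 15 wk old, so age differs between T and UC and cannot be told apart from treatment there. A value is counted in unique molecular identifiers (UMIs), each of which stands for 1 captured transcript, and levels are given as CPM, the UMIs of a gene per 1000000 UMIs of the same cells.

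After the meiotic divisions a spermatid is first round, then elongates and condenses its nucleus, and finally sheds most of its cytoplasm. Histones give way to transition proteins and then to protamines during elongation, and transcription stops as chromatin condenses, so transcripts that late steps need are made ahead of time and stored. BRDT binds acetylated histones in spermatocytes and spermatids and is required both for the meiotic to postmeiotic switch in transcription and for chromatin compaction.

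Only a few of the 10 products have a described role. Tppp2 encodes a member of the tubulin polymerization-promoting protein family that is found along the sperm tail, and male mice without it have reduced sperm motility. Nudt16l2 belongs to the Nudix hydrolase family, whose close relative Nudt16 acts on nucleoside diphosphates and RNA caps. Yjefn3 encodes a protein with a YjeF N-terminal domain and is a relative of Naxe, an epimerase that repairs damaged NAD(P)H. Ttc24 and Lrrc57 are named for tetratricopeptide and leucine-rich repeats, which mediate contacts between proteins. 4930544D05Rik and Gm136 are annotated as protein-coding, and 1700009J07Rik, 1700003O11Rik and 1700027A15Rik as noncoding.

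Positions are those of GENCODE vM21 on GRCm38 (mm10), matched by Ensembl gene ID for all 10 genes. Of these, 5 overlap a neighbour, and the sources used here do not state whether reads were assigned by strand, so UMIs of antisense partners cannot be told apart for these 5. 4930544D05Rik (ENSMUSG00000087279; chromosome 11, 70615848 to 70616890, plus strand) lies within Chrne on the other strand. Yjefn3 (ENSMUSG00000048967; chromosome 8, 69887788 to 69902712, minus strand) overlaps Ndufa13 on its own strand and, on the opposite strand, Tssk6, a kinase gene of late spermatids. Lrrc57 (ENSMUSG00000027286; chromosome 2, 120604238 to 120609520, minus strand) overlaps Haus2 on the plus strand. 1700003O11Rik lies on chromosome 18, antisense to Zbtb7c. 1700027A15Rik (ENSMUSG00000101968; chromosome 1, 72984844 to 73025507, plus strand) runs across Tnp1, the transition protein 1 gene, which is on the minus strand.

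The other 5 genes overlap no annotated gene. 1700009J07Rik (ENSMUSG00000096573) is an intergenic noncoding gene of 2 exons on the plus strand of chromosome 10, from 77893417 to 77896114. Ttc24 (ENSMUSG00000051036) covers chromosome 3 from 88069410 to 88078304 on the minus strand in 11 exons. Tppp2 (ENSMUSG00000008813) has 4 exons on the plus strand of chromosome 14, from 51918425 to 51920700. Gm136 (ENSMUSG00000071015) has 5 exons on the minus strand of chromosome 4, from 34743784 to 34756263, and Nudt16l2 (ENSMUSG00000032566) has 3 exons on the minus strand of chromosome 9, from 105143342 to 105145092.

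RefSeq promoter windows of GRCm38.p6, from 250 bases before to 50 bases after a start, were found for 8 of the 10 genes. Below are 3 of them, chosen because they belong to a transcript that declines in the last haploid stages, to the transcript that crosses Tnp1 and to one that is highest at the end. For 1700027A15Rik the window printed starts at 73015786, inside the annotated span that begins at 72984844. A further window of this gene, from 73024336, is not printed and holds its TATAAA matches. Capitals mark the letters of any of 6 motifs searched on both strands, namely TGACGTCA and its part TGACG (cAMP response element, the site of CREM in spermatids), TATAAA (bound by TBP), ACAAT (core of the SOX motif), GTTGCC (RFX) and CCAAT.
Gm136, chr4:34756210-34756509, minus strand: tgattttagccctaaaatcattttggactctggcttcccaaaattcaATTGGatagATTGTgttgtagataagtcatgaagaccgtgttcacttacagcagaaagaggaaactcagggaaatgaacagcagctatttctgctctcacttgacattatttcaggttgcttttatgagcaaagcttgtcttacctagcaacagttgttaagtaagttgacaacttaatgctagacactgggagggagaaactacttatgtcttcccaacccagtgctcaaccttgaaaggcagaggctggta
1700027A15Rik, chr1:73015786-73016085, plus strand: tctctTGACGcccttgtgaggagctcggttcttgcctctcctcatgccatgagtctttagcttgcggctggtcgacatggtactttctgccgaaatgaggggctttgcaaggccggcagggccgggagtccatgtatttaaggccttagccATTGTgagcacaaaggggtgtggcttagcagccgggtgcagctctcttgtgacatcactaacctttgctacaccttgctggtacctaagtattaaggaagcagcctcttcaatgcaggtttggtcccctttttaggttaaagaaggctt
Nudt16l2, chr9:105145033-105145332, minus strand: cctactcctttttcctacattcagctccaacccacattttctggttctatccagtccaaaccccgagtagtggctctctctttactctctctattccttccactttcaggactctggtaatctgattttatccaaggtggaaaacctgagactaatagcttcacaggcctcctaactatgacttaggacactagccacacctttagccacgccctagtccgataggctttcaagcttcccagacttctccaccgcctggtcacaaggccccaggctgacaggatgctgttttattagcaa
The full TGACGTCA was in 0 of the 8 genes' windows and in 1.79% of all 32851 mouse windows. TGACG, whose matches include those of the full element, was found for 2 of the 8 genes and in 20.8% of all windows, and TATAAA for 1 gene and in 13.6%. ACAAT was present for 3 genes against 31.0% of all windows, CCAAT for 3 genes against 37.4% and GTTGCC for 1 gene against 12.5%. A gene was counted if any of its windows held a match, whereas the shares of all windows are per window, so the units differ. Both genes with TGACG, Lrrc57 and 1700027A15Rik, had more than 1 window. A match is a description of letters, and letters absent from these windows say nothing about binding elsewhere.

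The 15 libraries held between 9673587 and 98724982 UMIs, and 72362 of 101610 barcodes were kept. Cells were named from marker transcripts, and clusters led by markers such as Acrv1, Spaca1 and Izumo1 are called spermatid-like and those led by markers such as Smcp, Odf1 and Oaz3 spermatozoa-like. The 5 spermatozoa markers summed to 5230 CPM in the spermatid-like and to 20973 in the spermatozoa-like cells, and the 6 spermatid markers to 2825 and 359. Pairs of libraries shared at most 46 cell barcodes, and no pair shared more than 0.554% of its smaller library. The spermatozoa-like class held 1, 1 and 3 cells in the T libraries and 930 to 3759 in the libraries of R, VC-R, UC and VC-T 2 and 3. The library labelled VC-T 1 held 0 such cells, although its mouse is labelled as vehicle-treated. The study left VC-T 1 out of its differential expression as an outlier, and it is shown separately here and left out of the control values unless stated.

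The level of each of the 10 genes was at least an order of magnitude lower in T than in R, VC-R, UC and VC-T 2 and 3. Over all kept cells of a library, Nudt16l2 was at 1.47, 0.220 and 1.67 CPM in the 3 T libraries and at 0.733 in VC-T 1. In the other 11 libraries it was between 246 and 407. 1700027A15Rik, the most abundant of the 10, was at 32.3, 16.7 and 29.8 in T, at 24.6 in VC-T 1, and between 1212 and 1909 in the others. The 4 libraries of T and VC-T 1 therefore lay below all others for both transcripts.

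Tppp2 was at 15.0, 8.64 and 10.4 CPM in T, at 15.1 in VC-T 1 and between 349 and 592 elsewhere. 4930544D05Rik was the member that kept most, with 24.0, 16.2 and 16.7 in T, 26.6 in VC-T 1 and 356 to 517 elsewhere. 1700003O11Rik was nearly lost, with 0.126, 0.110 and 0.952 in T, 0.122 in VC-T 1 and 82.0 to 98.7 elsewhere. In T these were 13 UMIs in all for 1700003O11Rik, 53 for Nudt16l2, 1003 for 4930544D05Rik and 1319 for 1700027A15Rik, and each of the 10 genes was detected in every one of the 15 libraries.

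The remaining genes behaved alike. Gm136 ranged from 1.32 to 3.12 CPM over T and VC-T 1 against 108 to 133 elsewhere, and Yjefn3 from 1.38 to 2.81 against 115 to 181. Ttc24 ranged from 0.825 to 3.10 against 296 to 434, 1700009J07Rik from 0.440 to 1.77 against 167 to 284, and Lrrc57 from 4.24 to 5.95 against 192 to 318. For each of the 10 genes the lowest of the 11 libraries exceeded the highest of the 4 by at least 13.4 times (4930544D05Rik) and by up to 148 times (Nudt16l2). Over all cells of a library, fewer late haploid cells and less RNA of a gene per cell cannot be told apart.

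**Figure D1:**
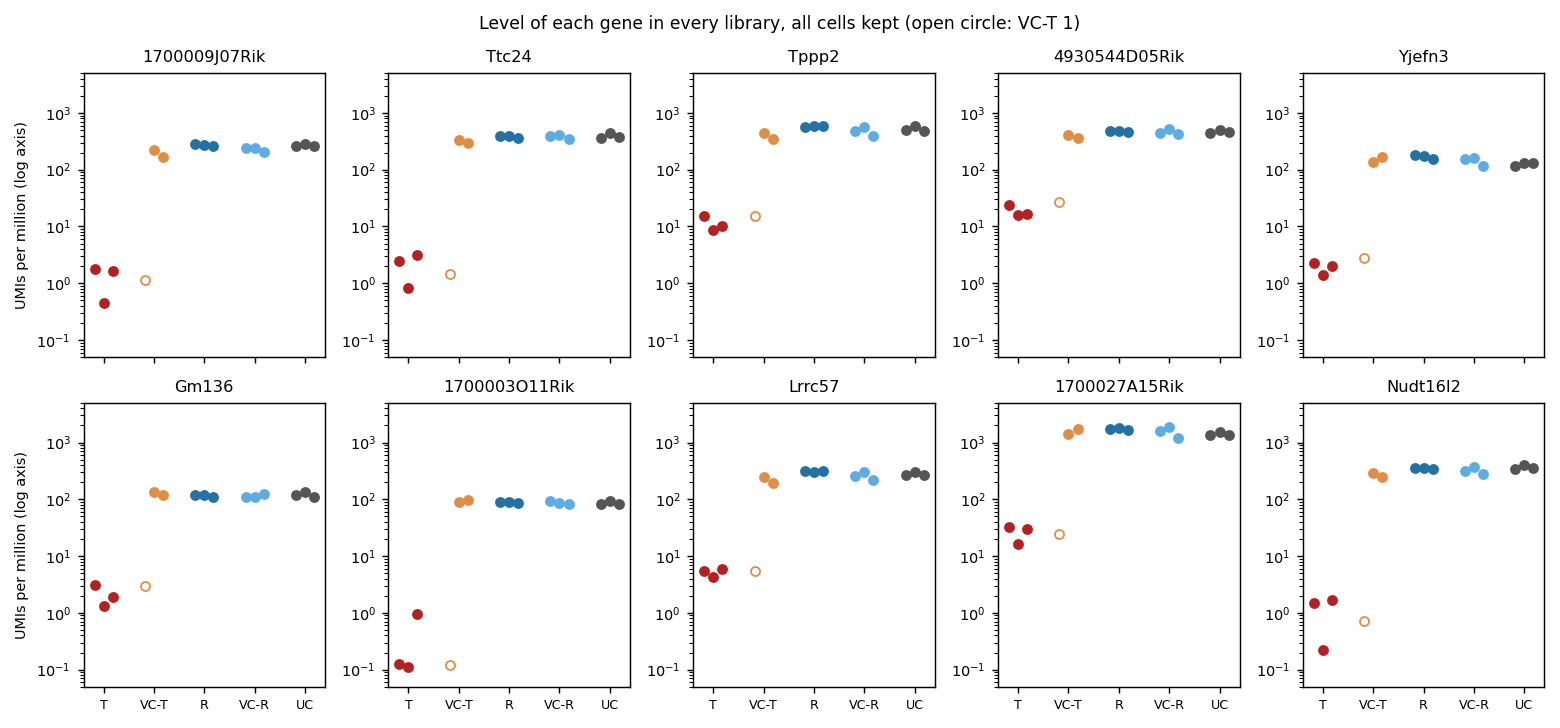
Each panel shows 1 gene, with its CPM over all kept cells (log axis) in each of the 15 libraries, grouped as T, VC-T, R, VC-R and UC; the open circle is VC-T 1. For every gene the 3 T libraries and VC-T 1 lie at least 13.4-fold below the other 11, and the R libraries overlap the vehicle and untreated ones or, in Yjefn3 (R 1 and R 2) and Lrrc57 (R 1 and R 3), reach above them.

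In R the level over all cells had returned. 1700003O11Rik was at 89.1, 91.0 and 86.8 CPM in R, at 92.8, 85.1 and 82.0 in VC-R and at 84.4, 93.8 and 83.7 in UC. Nudt16l2 was at 358, 354 and 339 in R, at 316, 378 and 276 in VC-R and at 339, 407 and 356 in UC. The ranges of R and VC-R overlapped for both. The R mean was 0.996 times (Gm136) to 1.21 times (Lrrc57) that of VC-R. In 2 of the 10 genes all R values lay above all VC-R values, namely 1700009J07Rik (282, 274 and 266 against 242, 240 and 205) and Lrrc57 (318, 308 and 312 against 256, 298 and 223), and in both the UC values overlapped those of R.

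To separate the number of cells at a stage from the level per cell, haploid cells were ordered by diffusion pseudotime computed without the 10 genes and divided into 10 bins, with equal cell numbers over UC, VC-R and VC-T 2 and 3. T libraries had between 464 and 992 cells in bin 1 and between 272 and 873 in bin 2. In bin 3 they had 99, 57 and 51 cells, and in bin 4 at most 18. The order rests on other late genes, several of which were also lower in T, so a T cell may be placed earlier than a control cell of the same age, and how far was not tested.

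Within these bins 4930544D05Rik was higher in haploid than in spermatocyte-like cells of T. It was at 23.3, 17.0 and 20.2 CPM in bin 1 of the T libraries and at 59.3, 55.3 and 39.5 in bin 2, above the 8.61, 6.54 and 6.89 of T spermatocyte-like cells. In UC it was at 127, 122 and 129 in bin 2, which is above all T values. Tppp2 took the same course, with 9.31, 7.10 and 8.54 in bin 1 and 42.1, 39.3 and 29.6 in bin 2 of T, against 4.50, 1.29 and 2.03 in T spermatocyte-like cells and 127, 113 and 90.7 in bin 2 of UC. In UC spermatogonia-like cells Tppp2 was at 87.8, 68.1 and 84.5 CPM and 4930544D05Rik at 51.6, 48.6 and 56.8. How much of the UC level in bins 1 and 2 was RNA from other cells was not tested. VC-T 1 resembled T, with 4930544D05Rik at 30.3 in bin 1 and 72.7 in bin 2.

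1700003O11Rik and Nudt16l2 stayed close to 0 in the early bins of T. Over the 3 T libraries 1700003O11Rik had 0 UMIs in the 2147 cells of bin 1 and 1 UMI in the 1659 cells of bin 2, and Nudt16l2 had 4 UMIs in each of these bins. In UC, 1700003O11Rik had 12 UMIs in 545 cells of bin 1 and 28 in 780 cells of bin 2. Ttc24 had 7 and 18 UMIs in T in these bins and 1700009J07Rik 1 and 9. In bin 3, 1700003O11Rik was at 0, 8.45 and 0 CPM in T against 74.2, 65.6 and 83.9 in UC, and Gm136 was at 53.2, 42.2 and 41.4 against 155, 195 and 175. Gm136 thus was present in the few T cells of bin 3, at a level below that of every UC library.

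Among spermatid-like cells of T 1, 1700003O11Rik was found in 0 of 1981 cells, which allows a share of up to 0.151%, and Nudt16l2 in 0 of 793 cells of T 3, which allows up to 0.378%. These limits cover counting error only and concern cells with a UMI, not cells that transcribe the gene. Tppp2 was found in 10.1% of spermatid-like cells of T 1 (exact 95% interval, 8.85 to 11.6%), in 8.39% of T 2 and in 6.68% of T 3, against 48.2, 51.6 and 40.3% in UC. In T spermatocyte-like cells, which had more UMIs per cell (medians 4469, 5198 and 3459.5), the share was 2.18, 0.686 and 0.710%. The median UMIs per spermatid-like cell were 3179, 2895 and 2236 in T and 4250, 5451 and 4121 in UC.

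Late haploid transcripts were also counted in other cell types. Sertoli cells engulf the cytoplasm that sperm shed, and whether they transcribe these genes themselves was not tested. In UC, Tppp2 was found in 45.8, 46.3 and 34.1% of Sertoli-like cells, whose median depth was 2140.5, 2203 and 2723 UMIs, so the UC share in spermatid-like cells cannot be read as expression by itself. In T it was found in 2 of 49 Sertoli-like cells of T 1 (4.08%) and in 7.50% of the 40 of T 3. Its level in UC was 324, 406 and 316 CPM in Sertoli-like cells, 226, 252 and 200 in spermatid-like cells and 1018, 1145 and 1018 in spermatozoa-like cells. The level in spermatozoa-like cells was above that in Sertoli-like cells in every UC library. UC 1 had more of these transcripts in its spermatocyte-like cells, where 1700009J07Rik was at 60.2 CPM and at most 27.2 in those of any other library.

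RNA that comes from 1 source would keep its genes near 1 ratio. Each transcript was therefore also set against Prm1, the protamine 1 transcript. In UC, 1000 Prm1 UMIs came with 14.1, 17.0 and 16.3 UMIs of Tppp2 in spermatozoa-like, 18.1, 19.7 and 18.6 in spermatid-like, 24.3, 23.8 and 28.0 in spermatogonia-like and 16.2, 19.1 and 21.4 in Sertoli-like cells. In T spermatid-like cells, Prm1 was itself low, at 534, 125 and 204 CPM against 12480, 12753 and 10735 in UC, and Tppp2 came at 61.7, 200 and 108 per 1000 Prm1 UMIs. In T Sertoli-like cells, where Prm1 was at 3448 (T 1) and 4428 CPM (T 3), Tppp2 came at 15.7 and 12.8, near the UC spermatozoa-like values. These 2 ratios rest on only 6 (T 1) and 4 (T 3) UMIs of Tppp2. 4930544D05Rik stood further apart, with 92.6, 315 and 161 in T against 19.9, 21.3 and 22.7 in UC spermatid-like cells. For both genes the lowest value of T spermatid-like cells was above the highest UC value in each of these classes. These T ratios reuse the T levels on which the genes were chosen, and the source of the RNA was not tested. A high ratio was not particular to spermatid-like cells, because Prm1 was also low in T spermatocyte-like cells, at 93.7, 18.2 and 53.5 CPM. There 4930544D05Rik came at 91.9, 358 and 129 per 1000 Prm1 UMIs and Tppp2 at 48.0, 70.8 and 37.9.

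The other transcripts divided into those above and those below the Prm1 ratio of UC. 1700027A15Rik was at 105, 218 and 174 per 1000 Prm1 UMIs in T spermatid-like cells and at 39.4, 40.5 and 44.8 in those of UC, and Lrrc57 was at 15.9, 43.9 and 34.4 against 8.26, 8.92 and 8.83. Gm136 was at 10.2, 27.2 and 16.3 against 7.77, 9.12 and 7.90. Nudt16l2, by contrast, was at 4.09, 3.03 and 0 in T and at 8.65, 8.50 and 9.08 in UC. 1700009J07Rik, Ttc24, Yjefn3 and 1700003O11Rik had T values that overlapped those of UC. The T ratios reuse the T levels on which the genes were chosen, and the low ones rest on few UMIs, namely 18, 2 and 0 of Nudt16l2 and 0, 1 and 3 of 1700003O11Rik. In T spermatocyte-like cells the ratio was 153, 646 and 299 for 1700027A15Rik and 33.3, 189 and 56.8 for Lrrc57. Both were above the T spermatid-like ratios in every T library. Gm136 came at 16.3, 18.9 and 15.2 in T spermatocyte-like cells, above its T spermatid-like ratio in T 1 only.

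**Figure D2:**
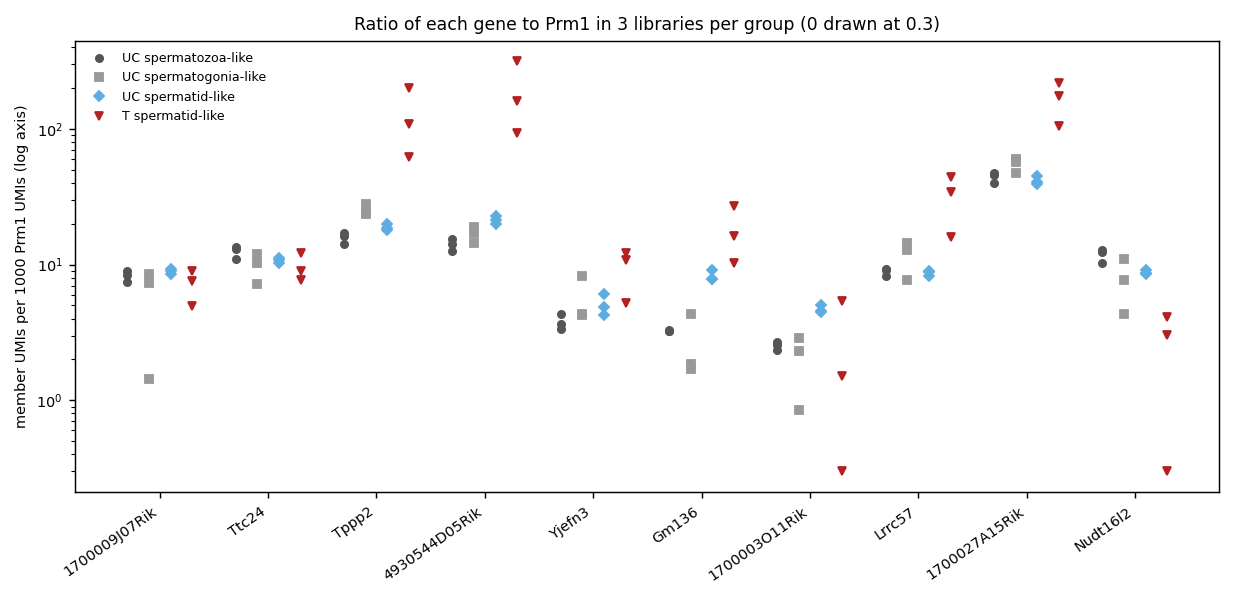
UMIs of each gene per 1000 Prm1 UMIs (log axis; a value of 0 is drawn at 0.3), with 1 point per library, in UC spermatozoa-like, spermatogonia-like and spermatid-like cells and in T spermatid-like cells. Tppp2 (61.7 to 200 in T) and 4930544D05Rik (92.6 to 315 in T) lie above all UC points, and Nudt16l2 (0 to 4.09 in T) lies below the UC spermatid-like points.

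The 5 T cells that were called spermatozoa-like did carry the transcripts. They held 2, 6, 2, 4 and 7 of the 10 genes, with 9, 9, 2, 9 and 27 UMIs of them, at depths of 1080 to 1956 UMIs per cell. Each of the 5 had a UMI of Ttc24 and of 1700027A15Rik. The cell with 27 UMIs, from T 3, had 13 UMIs of Prm1 and 168 of Prm2, whereas the other 4 cells had more Prm1 than Prm2. Whether these cells came from before the treatment or were formed under it was not tested.

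As summed over all spermatid-like cells of a library, the levels in T were those that chose the genes. 1700003O11Rik was at 0, 0.189 and 1.11 CPM in T against 55.6, 58.4 and 54.3 in UC, and Nudt16l2 at 2.18, 0.379 and 0 against 108, 108 and 97.5. Tppp2 was at 33.0, 25.0 and 22.1 against 226, 252 and 200, and 4930544D05Rik at 49.4, 39.4 and 32.8 against 249, 272 and 244. No T library overlapped a UC library for any of the 4. Log2 fold changes of T over UC ran from -2.87 (SE 0.12) for 4930544D05Rik and -3.30 (SE 0.14) for Tppp2 to -6.66 (SE 0.27) for Nudt16l2 and -7.94 (SE 0.33) for 1700003O11Rik, with a median of -4.87 over the 10 genes and 0.05 over all 13082 genes tested. All 10 genes passed the call used throughout, an adjusted p under 0.05 by edgeR's quasi-likelihood test and an absolute log2 fold change over 1, in the lower direction, beside 14.6% of all genes, a count that follows from how they were chosen. By p they held ranks from 1 (1700009J07Rik) to 34 (1700027A15Rik) among the 1913 genes called lower.

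With the same number of cells from every library in each of bins 1 to 3 (381 cells per library), the log2 fold changes of T over UC shrank to between -1.69 (4930544D05Rik) and -5.12 (1700003O11Rik), with a median of -2.99. Against VC-T 2 and 3, which share the T libraries with the comparison above, the median was -5.40, and all 10 genes were called lower beside 17.2% of all genes, a count that reuses the T values that chose them, with 1700003O11Rik at 79.1 and 65.0 and Tppp2 at 276 and 222 CPM in the 2 vehicle libraries. With VC-T 1 kept among the controls, 9 of the 10 genes were tested and 0 were called, as was 0 of all 13504 genes by edgeR (3605 at an unadjusted p under 0.05), although the 9 log2 fold changes were negative with a median of -4.61.

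Along the haploid stages of the 11 control and recovered libraries the 10 genes differed in when they came near their highest level. Onset is given as the first bin in which a library reached 50% of its own highest bin. Gm136 came first, in bin 3 (median; range over libraries 3 to 4), then 1700003O11Rik in bin 4 in all 11 libraries. 1700009J07Rik (range 5 to 7), Ttc24 (4 to 7) and 4930544D05Rik (5 to 6) had a median onset in bin 5, and Yjefn3 in bin 7 (5 to 9). Lrrc57 (6 to 8) and 1700027A15Rik (8 to 9) followed in bin 8, and Tppp2 and Nudt16l2 in bin 9 (8 to 9 for both). The ranges of neighbours in this order overlap or touch. The order rests on that level, because at 25% of the highest bin Gm136, 1700003O11Rik and 4930544D05Rik had a median onset in bin 3 and the other 7 genes in bin 4, with ranges of the 2 sets that overlap. Prm1, Tnp1 and Tnp2 had their onset in bin 4 in all 11 libraries, Acrv1, an acrosomal protein gene of round spermatids, in bin 1 (1 to 2) and Odf1 and Smcp, of the sperm tail, in bin 9 (8 to 9).

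The shape after onset divided the genes. Gm136 reached its highest level in bin 4 or 5, at 317 to 392 CPM, and then fell off, so that bin 10 held a median of 6.29% of that level (range 3.26 to 11.3%). 1700003O11Rik also reached its highest level in bin 4 or 5, at 265 to 343 CPM, and fell to a median of 16.7% (15.4 to 27.4%). The other 8 transcripts were highest in bin 10 in all 11 libraries. Both shapes hold in each of the R, VC-R and UC libraries and in VC-T 2 and 3. With 20 bins in place of 10, Ttc24 was highest in bin 19 (median; range 19 to 20). Its last bin then held a median of 94.1% of that level (63.5 to 100%). 1700009J07Rik, 4930544D05Rik and Yjefn3 had a median highest bin of 20 (range 19 to 20).

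Levels in bin 10 spanned more than an order of magnitude between the 8 late transcripts, compared here as UMIs of the 3′ end, where a transcript counts 1 time whatever its length. 1700027A15Rik was highest, at 5632 to 10371 CPM, followed by Tppp2 at 1886 to 2665, Nudt16l2 at 1375 to 1706 and 4930544D05Rik at 1252 to 1665. Ttc24 was at 1010 to 1484, Lrrc57 at 911 to 1177, 1700009J07Rik at 695 to 953 and Yjefn3 at 405 to 930. VC-T 3 gave the top of the range for 1700027A15Rik, where the next library was at 7593, and for Yjefn3, where the next was at 613. Neighbours in this order overlap in range, apart from 1700027A15Rik and Tppp2, and Tppp2 and Nudt16l2, whose ranges are apart.

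1700027A15Rik did not follow the gene that it crosses. Tnp1 was highest in bin 7 or 8 and had fallen to a median of 3.21% of that level in bin 10 (2.01 to 4.95%), where 1700027A15Rik was at its highest in every library. Tnp2, highest in bin 6, had fallen to 4.19%, and Prm1 to 31.2%. The UMIs that both loci might share were not tested, since the strand setting is not stated.

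**Figure D3:**
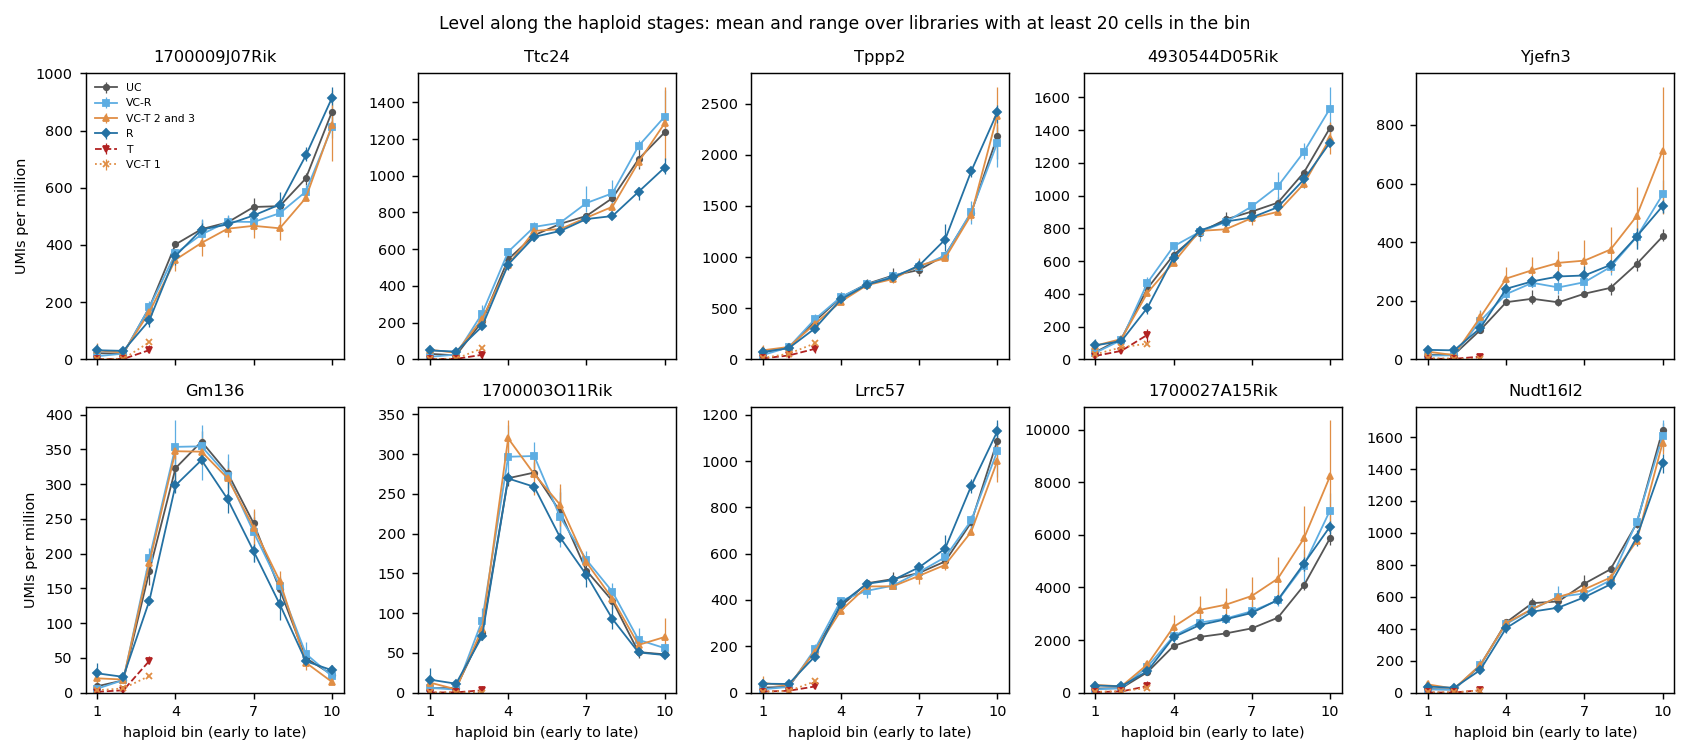
Each panel shows 1 gene, with its CPM (linear axis, own scale) in 10 bins of pseudotime from early to late haploid cells; points are means over libraries with at least 20 cells in the bin and bars run from the lowest to the highest library. Gm136 and 1700003O11Rik are highest in bins 4 and 5 and decline, the other 8 genes are highest in bin 10, and T (red) and VC-T 1 (orange crosses) end at bin 3.

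Between bins 5 and 10 the level of Tppp2, Nudt16l2 and 1700027A15Rik gained more, as a ratio, than that of the other 7 genes in each UC library. In UC, Tppp2 went from 714, 788 and 710 CPM in bin 5 to 2272, 2305 and 1963 in bin 10, and Nudt16l2 from 530, 595 and 555 to 1687, 1645 and 1602. 1700027A15Rik went from 2134, 2049 and 2162 to 6114, 5868 and 5632. The level is a share of the cell's remaining UMIs, and a transcript that is kept while others are lost rises on this scale.

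Over 122 sums of cells by library and bin, from all 15 libraries, the genes whose log2 level was most like the mean of the 10 were Oxct2a (r = 0.988), Herpud1 (0.988), 1700042G07Rik (0.987), 1700020A23Rik (0.987) and Prm2 (0.986), out of 6908 genes with a mean of at least 10 CPM. Oxct2a encodes a testis-specific ketone body enzyme and Prm2 the protamine 2 precursor. Within the 10, Gm136 was least like the mean of the other 9 (r = 0.74), then 1700003O11Rik (0.90), and the other 8 lay between 0.956 and 0.986. The points share libraries and bins, T included, so these are descriptions.

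R and VC-R did not enter the contrast on which the genes were chosen, although the choice was made with earlier results of these data known. The comparison of R with VC-R asks whether the RNA of these genes came back to the same level in cells of the same class. In spermatid-like cells, 0 of the 10 genes were called, beside 7.40% of all 14734 genes tested (1081 of the 1090 called were higher in R). Nudt16l2 was at 125, 113 and 108 CPM in R and at 105, 81.8 and 97.3 in VC-R, a log2 fold change of 0.12 (95% interval, -0.10 to 0.33). Its R values lay above those of VC-R, whereas after scaling by TMM, which sets libraries to a common level over most genes, the ranges overlapped. 1700003O11Rik was at 72.9, 62.4 and 67.5 in R and at 65.5, 49.9 and 55.4 in VC-R (0.09, -0.13 to 0.31). Tppp2 was at 231, 242 and 209 in R and at 240, 206 and 222 in VC-R (-0.14, -0.34 to 0.06), and the groups overlapped for both.

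4930544D05Rik was the only one of the 10 at an adjusted p under 0.05 at any size. It was at 250, 239 and 229 CPM in R and at 244, 241 and 286 in VC-R, ranges that overlap, and after TMM scaling at 237, 231 and 211 against 247, 264 and 313, which do not. Its log2 fold change was -0.28 (SE 0.10; adjusted p = 0.0345 by edgeR), beside 14.8% of all genes lower at this threshold. The 10 log2 fold changes ran from -0.28 to 0.22 (Yjefn3), 4 of them negative, and the 95% interval of each lay within 1 log2 unit of 0, none reaching further than 0.48, or 1.40-fold. The adjusted p of the other 9 genes ran from 0.126 (Gm136) to 0.848 (1700009J07Rik).

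The spermatid-like cells of R differed from those of VC-R in make-up. Clusters of haploid cells with a median under 2000 UMIs made up 72.2, 66.1 and 84.1% of them in R and 24.1, 16.6 and 2.86% in VC-R, and the nuclear noncoding RNA Malat1 was at 1689, 1323 and 1538 CPM against 1009, 824 and 797. The 8 Sertoli markers summed to 92.6, 111 and 91.0 in R with 0 of them at 0, and to 68.7, 20.8 and 19.8 in VC-R with up to 2 at 0. With equal cells per library in each of bins 1 to 4 (618 per library), 5 of the 10 genes were lower in R at an adjusted p under 0.05 by edgeR, beside 9.82% of all genes, and 0 were called. These were 4930544D05Rik (-0.59, SE 0.12, edgeR adjusted p = 0.00121), Gm136 (-0.59, SE 0.13, adjusted p = 0.00251), Tppp2 (-0.42), Ttc24 (-0.42) and 1700009J07Rik (-0.39), and the median of the 10 was -0.31 against 0.05 over all genes.

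With the low-UMI clusters left out, a choice made after seeing the data, the log2 fold changes of all 10 genes were positive, from 0.03 (4930544D05Rik) to 0.43 (1700003O11Rik), and 0 of them, and 0 of all 13076 genes, reached an adjusted p under 0.05 by edgeR (1339 genes at an unadjusted p under 0.05). With those clusters left out and equal cells per bin (435 per library), they ran from -0.16 (Gm136) to 0.20 (Yjefn3), the smallest adjusted p was 0.602, and each interval lay within 1 log2 unit of 0. The sign of most of these small differences therefore moved with which cells were counted, while none of the 10 genes differed by 1 log2 unit under any of these choices.

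**Figure D4:**
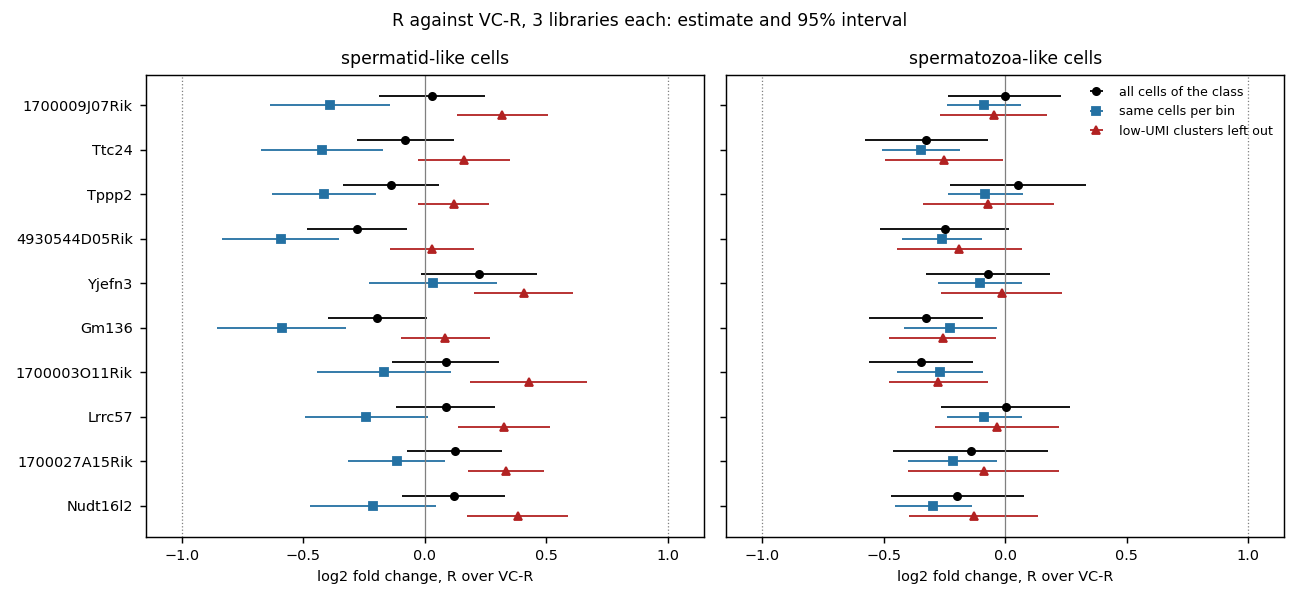
Log2 fold change of R over VC-R (point) with its 95% interval (line) for each gene, in spermatid-like (left) and spermatozoa-like cells (right), with all cells of the class, with equal cells per pseudotime bin and with low-UMI clusters left out; dotted lines mark 1 log2 unit. In spermatid-like cells the estimates with equal cells per bin reach -0.59 (4930544D05Rik, Gm136) and those without low-UMI clusters 0.43 (1700003O11Rik).

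In spermatozoa-like cells, where the late transcripts are most abundant, 0 of the 10 genes were called between R and VC-R, beside 0% of all 12025 genes tested by edgeR (0 called, 1985 at an unadjusted p under 0.05), and DESeq2 also called 0 genes. Nudt16l2 was at 730, 723 and 746 CPM in R, at 670, 864 and 711 in VC-R and at 737, 837 and 800 in UC. 1700027A15Rik was at 3540, 3691 and 3606 in R, at 3267, 4336 and 3042 in VC-R and at 2865, 3082 and 2948 in UC. Tppp2 was at 1146, 1178 and 1290 in R, at 969, 1211 and 925 in VC-R and at 1018, 1145 and 1018 in UC. The R and VC-R ranges overlapped for these 3 genes, and VC-R 2 gave the highest VC-R value of each.

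1700003O11Rik was lower in all 3 R libraries (159, 167 and 157) than in the VC-R libraries (186, 178 and 190), with 170, 171 and 168 in UC, and so was Ttc24 (776, 786 and 763 in R; 807, 911 and 889 in VC-R; 797, 877 and 848 in UC). Their log2 fold changes were -0.35 (SE 0.10, adjusted p = 0.152 by edgeR) and -0.32 (SE 0.12, adjusted p = 0.213), neither past the threshold. Over the 10 genes the log2 fold changes ran from -0.35 to 0.05, 8 of them negative with a median of -0.17, and no 95% interval reached further than 0.58, or 1.49-fold. Without VC-R 1 the fit called 179 genes in all, and 5 of the 10 were lower in R at an adjusted p under 0.05, namely Ttc24 (-0.45), Gm136 (-0.43), 1700003O11Rik (-0.42), 4930544D05Rik (-0.39) and Nudt16l2 (-0.34).

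Whether the effect of R differed between the 2 haploid classes was tested as an interaction in edgeR over the 12 sums, with the library, and so the mouse, as a block. None of the 10 genes reached an adjusted p under 0.05, beside 13.8% of all 15885 genes. The smallest was that of 1700003O11Rik, with a difference of -0.33 on the log2 scale (SE 0.15, edgeR adjusted p = 0.157), and the next that of Tppp2, with 0.33 (SE 0.17, adjusted p = 0.194).

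Genes of the same programme were counted in the same fits. Of 9 tested genes of chromatin condensation, 7 were called lower in T than in UC spermatid-like cells, beside 14.6% of all genes, and 0 higher, among them Prm2 (-5.78), Prm1 (-5.63), Tnp2 (-4.94) and Tnp1 (-3.57), with a median of -1.95 over the 9. Of 12 genes of the sperm tail, sheath and mitochondrial capsule, 7 were called lower, beside the same 14.6%, and 0 higher, with a median of -1.04, the largest being that of Tssk6 (-3.27), which overlaps Yjefn3 (-4.98). Of 8 genes of early spermatids and the acrosome, 0 were called, with a median of -0.21.

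Of the relatives Tppp, Tppp3, Naxe, Nudt16 and Nudt16l1, 4 were tested in T against UC. Nudt16 was called lower (-1.04, SE 0.33), Nudt16l1 was called higher (1.36, SE 0.42), and Tppp3 (-0.56) and Naxe (-0.26) were not called. The 10 genes were chosen on this contrast, so their sizes are not set against those of the lists. The lists were themselves chosen with earlier results of these data known, and their counts in T against UC are a description. In R against VC-R, 0 genes of the first 3 lists were called in spermatid-like cells, beside 7.40% of all genes, with medians of -0.22, -0.23 and -0.27, and 1 relative, Nudt16l1 (1.40), was called higher. In spermatozoa-like cells 0 genes of the 4 lists were called, beside 0% of all genes.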

How the data were processed

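The deposited tables hold raw counts of UMIs for each gene in each barcode, which the authors made from 10x Genomics 3′ libraries with Cell Ranger on mm10 (version 3.0.0 per the submitters' processing notes, 7.0.0 per the file headers). The chemistry is v3.1 per the labels and v3 in the methods, and intron and strand settings are not given in the sources used here. The study also corrected for ambient RNA and doublets, steps that the deposited counts do not hold.

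Barcodes with at least 500 genes and 1000 UMIs and under 30% mitochondrial UMIs were kept, and the 5.4% with the highest doublet score were removed per library. Cells were clustered with scanpy 1.11.5 (counts scaled to 10000 per cell, 2000 variable genes without the 10 genes, 30 components, 20 neighbours, Leiden resolution 1.2) and clusters named from marker lists. Classes needed at least 10 cells per library and pseudotime bins 20. UMIs were summed per library and class, genes were filtered with filterByExpr, and sums were tested with edgeR 4.0.16 (TMM, quasi-likelihood, R 4.3.3) across all genes with Benjamini-Hochberg adjustment. Calls needed both a log2 fold change beyond 1 in size and an adjusted p below 0.05. Intervals of shares are exact binomial, and a count of 0 was given a limit of 3 counts. Scripts were tested on simulated data. Groups were taken from the labels, with 3 mice in each of 5 groups. The genes named were the 10 members, the 5 genes most like them and the members of 4 lists, and both members and lists were chosen with earlier results of these data known. Alternatives were DESeq2 1.42.0, its size factors, no filter, a replicate block, doublet-scored cells kept, equal cells per bin, each library left out, VC-T 1 kept and other onset settings.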

Additional observations from a re-analysis of the deposited data

How the results depend on the processing

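Total UMIs ran from 9673587 to 98724982 per library, and CPM of classes with few cells are the least precise. For R against VC-R in spermatid-like cells, where 1090 genes were called, DESeq2 called 691, equal cells per pseudotime bin 457, low-UMI clusters left out 0 (chosen after seeing the data) and both together 1, and leaving out each library in turn gave 673 (without VC-R 2) to 1760 (without VC-R 1). Of the 10 genes, 1 was at an adjusted p under 0.05 there. This count was 0 with the replicate block, with doublet-scored cells kept, with low-UMI clusters left out and with both, 5 with equal cells per bin, and 0 to 3 with each library left out (3 without VC-R 1). In spermatozoa-like cells, where 0 genes were called, the replicate block called 13, doublet-scored cells kept 1, no filter 29 and leaving out each library 0 to 179 (179 without VC-R 1), and 0 to 5 of the 10 genes were then at an adjusted p under 0.05. The replicate numbers of R and VC-R did not pair the samples (correlations of same-numbered deviations of -0.06, 0.11 and -0.21 in spermatid-like cells), and with the replicate block 1005, 2648 and 3101 genes were called in spermatid-like cells of R against VC-R, T against UC and T against VC-T.

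T against UC (2375 genes called) gave 577 with equal cells per bin, and T against VC-T (2830) gave 715, and 0 with VC-T 1 kept, where 0 of the 10 genes were called. As the choice of the genes would give, all 10 were called lower in each other setting of both comparisons, each library left out included (2325 to 2694 and 2675 to 3218 genes in all). The median onset over the 10 genes, after 50% of the cells, was after 30% when onset was set at 25% of the highest bin, where the median onsets of all 10 fell in bins 3 and 4. Small log2 fold changes of R over VC-R changed sign, and the cause was not tested. In spermatid-like cells 1700009J07Rik was at -0.019 with DESeq2 and with its size factors, at -0.39 with equal cells per bin and at -0.052 to 0.13 with each library left out. With low-UMI clusters left out Ttc24 was at 0.16, Tppp2 at 0.12, 4930544D05Rik at 0.028 and Gm136 at 0.085. With equal cells per bin 1700003O11Rik was at -0.17, Lrrc57 at -0.24, 1700027A15Rik at -0.12 and Nudt16l2 at -0.21, and with each library left out 1700003O11Rik was at -0.0076 to 0.13. In spermatozoa-like cells 1700009J07Rik was at 0.0033 with the replicate block, at 0.031 with no filter and at -0.089 to 0.089 with each library left out. Tppp2 was at -0.070 with low-UMI clusters left out, at -0.081 with equal cells per bin, at -0.14 with both and at -0.071 to 0.27 with each library left out. Lrrc57 was at -0.018 with DESeq2 and its size factors, at -0.019 with doublet-scored cells kept, at -0.034 with low-UMI clusters left out, at -0.086 with equal cells per bin, at -0.072 with both and at -0.14 to 0.19 with each library left out. Leaving out each library gave -0.17 to 0.12 for Yjefn3, -0.27 to 0.12 for 1700027A15Rik and -0.34 to 0.0076 for Nudt16l2. In all, 36 values for single genes reversed. Of the other values for single genes, 403 stayed on their side of the threshold and of 0, and 60 moved by more than the spread between replicates.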
